A study of Rattus norvegicus with 24 samples.

Results

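The 150 transcripts described here are the rows of a rat liver array table whose levels were lowest in burned against sham rats on both days 2 and 7. They were chosen from 15923 rows by 1 measured value, the larger of the day 2 and day 7 differences between the burn mean and the sham mean, on a log2(signal + 16) scale. The 57 control rows and the 300 brightest remaining rows over the 9 sham arrays were left out first, which left 15566 rows to rank. The same 150 rows come out when the bright rows stay in. Rows are called by their rank in this order, rank 1 being the lowest. Days 2 and 7 therefore describe the choice, and day 4, which the choice did not use, is the comparison that can test it.

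The series measured total RNA of whole liver from rats (Rattus norvegicus) after burn injury or sham treatment, on oligonucleotide arrays. Days 2, 4 and 7 have 3 burn arrays and 3 sham arrays each, 18 in all, with the arm and the day read from the sample titles. The labels used here do not state the strain, age or sex of the rats, how the burns were made, what sham treatment was, or whether each array is a rat of its own. P-values therefore speak only of the spread between arrays, part of which may be technical. The description of burn day 2 replicate 1 speaks of a sham control, against its title, and the title was followed. The day 1 arrays are not used, because their rows do not correspond to those of the later days (correlation of mean levels 0.0371).

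As background, the liver answers a large burn with an acute phase response. Inflammatory cytokines reach hepatocytes, which raise the synthesis of acute phase proteins such as haptoglobin and fibrinogen and lower that of constitutive secreted proteins such as albumin and transthyretin. Falls in metabolic and secretory transcripts are thus part of the known picture of the burned liver. Whether the rows described here are such transcripts cannot be read from the table, because its row names and values do not belong together. Of 1490 genes listed with exactly 2 probe sets, the levels of the 2 correlated at -0.0516, and the 2 rows listed as albumin (Alb), which liver makes in great amounts, stood at percentiles 7.0 and 69.3 of all rows. No row is given a gene name for this reason, and no gene list or cell type marker was tested. Only control rows are named. Their names were checked by level: the rows named for the spike-in RNAs BioB, BioC, BioD and Cre, which are added in rising amounts, averaged 8.64, 9.87, 11.21 and 13.76 (log2). The 3 rows each for beta-actin (Actb) and Gapdh lay between percentiles 96.8 and 99.0 of all rows. Over the 18 arrays the Actb rows correlated with each other at 0.685 to 0.91, but the Gapdh rows at -0.209 to 0.676, so the Gapdh name is the less well borne out. In whole liver, fewer cells of a type and less RNA per cell cannot be told apart.

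Most of the 150 transcripts were dim and varied widely between arrays of a group. Of the 150, 126 lay below the median level of all rows, and their median level was at percentile 24.4. Mean levels over the 18 arrays ran from 4.85 to 11.86 (log2), and 54 rows were under 6. The residual standard deviation within groups was above the median of all rows in 144 of 150 members and above the 90th percentile of all rows in 64. Its median was 0.58 log2 units in the members against 0.27 over all rows. The members were spread over the table, with 35, 41, 37 and 37 in successive stretches of equal length and no 2 in neighbouring rows.

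On the days of the choice, the members stood lower in burn by construction. The median difference, burn minus sham, was -0.74 (log2) on day 2 and -0.76 on day 7, with lows of -2.53 and -1.97. The difference on day 2 was the larger fall in 74 rows and that on day 7 in 76. Burn arrays lay below all sham arrays without overlap in 53 members on day 2 (35.3%, against 6.85% of all rows). On day 7 they did in 63 (42%, against 7.94% of all rows). This held on both days in 23 members, and in 0.961% of all rows. The row of rank 150 had a deciding difference of -0.55 and the first row outside one of -0.54, so the boundary marks no gap. With limma, 1 member passed an adjusted p of 0.05 on day 7 (0.0502% of all rows passed) and 0 on day 2 (0% of all rows). These counts come from the contrasts that chose the rows, and nothing is read from them.

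On day 4 the 150 transcripts as a group stood at nearly the same level in burned and sham liver. The median of the members on single arrays was 6.52, 6.58 and 6.71 (log2) in burn and 6.50, 6.69 and 6.68 in sham. Both arms overlapped, with means of 6.60 ± 0.10 and 6.62 ± 0.11 (SD, n = 3 each). On days 2 and 7 the same medians ran from 5.79 to 6.24 on the 6 burn arrays and from 6.75 to 7.10 on the 6 sham arrays. All 6 arrays of day 4 thus lay between the burn and the sham arrays of the days used for the choice. In deposited signal, the array medians of the members were 76.1 to 87.05 in burn and 83.0 to 90.55 in sham on day 4.

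**Figure D1:**
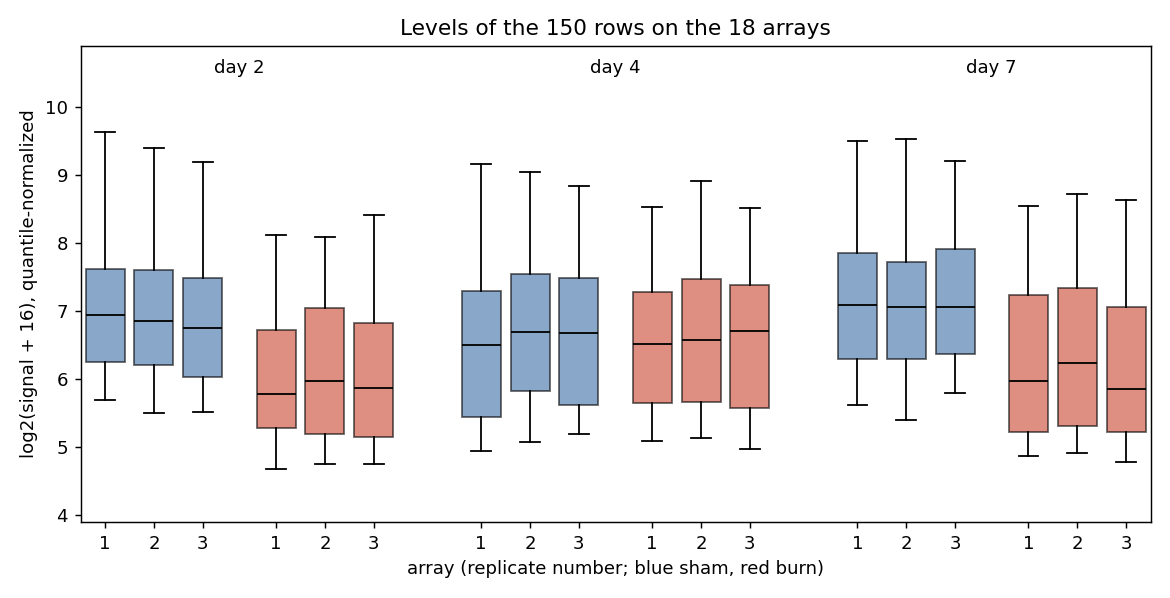
Levels of the 150 rows, log2(signal + 16) after quantile normalization, on each of 18 arrays (x axis: replicate within group; blue sham, red burn; box: quartiles with the median; whiskers: percentiles 10 to 90). Burn boxes sit lower on days 2 and 7, where the rows were chosen, and the 6 boxes of day 4 have medians between 6.50 and 6.71.

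On day 4 sham stood lower, and burn higher, than on the days of the choice. The median over members of sham day 4 minus the mean of sham days 2 and 7 was -0.34 (log2), and the same quantity in burn was 0.38. In 96 of 150 rows the sham mean of day 4 was below the sham means of both other days. In 103 rows the burn mean of day 4 was above the burn means of both other days, and 58 rows showed both. The sham and burn arrays of days 2 and 7 were used for the choice, so these values describe where the day 4 arrays lie and are not a test.

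Row by row, the day 4 differences of the members were centred near 0 and wider than those of all rows. The median was -0.08 (log2), with quartiles of -0.37 and 0.37 and a range of -2.14 to 1.08, against a median of -0.0021 and quartiles of -0.17 and 0.18 over all rows. A difference below 0 was found in 84 of 150 members (56.0%), where 50.4% of all rows lay below 0. The median turned to 0.01 and the count to 72 without burn day 4 replicate 1, so the direction of the median rests on that array. The share below 0 was 56.7% against 55.8% of all rows with values as deposited, and 50.7% against 47% with median scaling and members chosen anew. With a pseudocount of 1 and members chosen anew it was 50% against 50.3%. With members chosen anew, the median was -0.018 with median scaling, -0.0068 with a pseudocount of 1 and -0.11 with values as deposited.

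No member passed the test on day 4. With limma, 0 of 150 had an adjusted p under 0.05 (0% of all rows passed), the smallest being 0.218. At an unadjusted limma p under 0.05, 14 members (9.33%) were lower in burn, where 4.38% of all rows were. At the same threshold 4 members (2.67%) were higher, where 4.95% of all rows were. The 3 burn arrays lay below the 3 sham arrays without overlap in 14 members (9.33%, against 7.23% of all rows) and above them in 9 (6.0%, against 7.63%). A difference as low as the threshold of the choice was seen on day 4 in 25 members, where 4.73% of all rows had one, at the wider spread of the members given above. The 14 lower rows became 26 of 150 when the dim rows (the lowest 33.3% by mean level) were left out and the members were chosen anew (17.3%, against 5.89% of all rows left). Only 46 of those 150 rows are among the members described here. With a pseudocount of 1 and members chosen anew the count was 8 (5.33%, against 4.21% of all rows). It was 9 (6.0%) without sham day 4 replicate 1, against 3.17% of all rows, and 9 without sham day 7 replicate 1, against 4.1%.

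**Figure D2:**
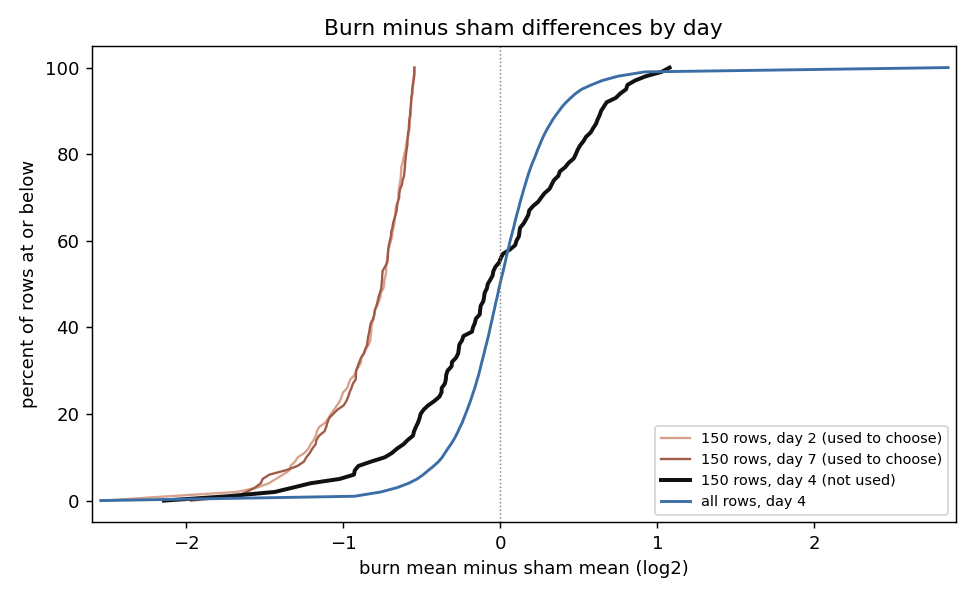
Cumulative distributions of burn mean minus sham mean (x axis, log2) for the 150 rows on days 2, 4 and 7 and for all 15923 rows on day 4 (y axis: percent of rows at or below). The members' day 4 curve crosses 0 at 56.0% of rows, against 50.4% for all rows, while the day 2 and day 7 curves lie wholly below 0 because those days chose the rows.

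The day 4 values of the members were also read by level. The members were put into 3 groups of 50 by their mean over the 18 arrays. In the brightest 50, at levels from 6.91 up, 36 of 50 rows (72%) lay below 0 on day 4, with a median difference of -0.26 (log2). Of all 10293 rows in that level range, 50.1% lay below 0 and the median was -0.00047. The 2 sets are unlike in spread and level. The median residual standard deviation was 0.54 log2 units in the brightest 50 and 0.23 in all rows of the range, and the median levels were 7.66 and 8.42. At an unadjusted limma p under 0.05, 9 of these 50 (18%) were lower and 0 higher in burn, where 5.06% and 5.42% of all rows in the range were. In the middle 50, 21 rows lay below 0 with a median of 0.12, and in the dimmest 50, 27 rows did with a median of -0.03. At the same unadjusted p, 2 of the middle 50 were lower and 1 higher, where 3.09% and 3.3% of all rows in that range were. In the dimmest 50, 3 were lower and 3 higher, where 2.44% and 3.45% of all rows in that range were. The median level of the brightest 50 on single arrays was 7.61, 8.09 and 7.79 (log2) in burn and 7.86, 8.08 and 7.98 in sham on day 4, so the arrays overlapped. Without burn day 4 replicate 1, where that median was lowest, 29 of 50 lay below 0 and the median was -0.15. It was -0.17 without burn day 4 replicate 3.

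At the top of this range most rows lay on the burn-low side. Of 15 members above a level of 9, a limit set after the values were seen, 14 lay below 0 on day 4 and 1 above, with a median of -0.43 (log2). Of all 4104 rows above that level, 50.2% lay below 0. The exception, rank 64, read 1222.8, 1458.1 and 1004.2 in burn and 1165.1, 1261.8 and 912.7 in sham on day 4 (deposited signal), a difference of 0.16 ± 0.17 (SE, log2). Its arrays overlapped on that day. An unadjusted limma p under 0.05 on day 4 was seen among these 15 only in ranks 3, 14, 51 and 146. The 15 rows do not all vary separately. In deviations from the group means, rank 3 correlated at 0.827 with rank 14 and at 0.837 with rank 108. The count of 14 was not run with single arrays left out.

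**Figure D3:**
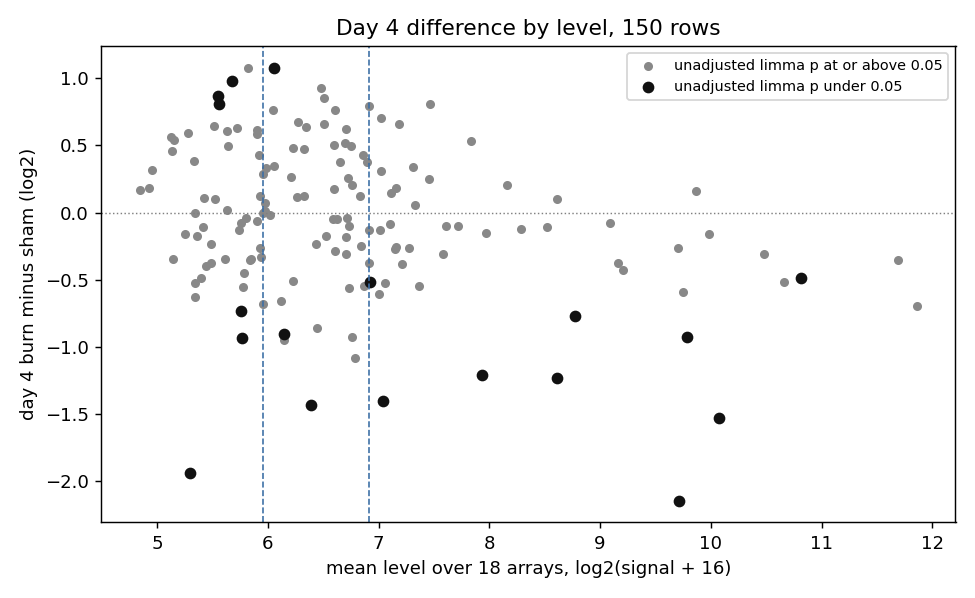
Day 4 difference, burn minus sham (y axis, log2), against the mean level over 18 arrays (x axis, log2(signal + 16)) for each of the 150 rows; dashed lines part the 3 groups of 50 by level. Black points have an unadjusted limma p under 0.05: 14 lie below 0, 9 of them in the brightest 50, and 4 lie above 0, none of which is in that group.

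Rank 3 was the lowest member on day 4. Its deposited signal on day 4 was 1209.0, 409.1 and 186.6 in burn and 2614.6, 2877.0 and 1226.7 in sham. On day 2 it was 222.7, 198.0 and 721.8 in burn and 1787.1, 1430.1 and 2746.6 in sham. On day 7 it was 568.6, 254.7 and 620.8 in burn and 2189.7, 1137.9 and 471.6 in sham. Every burn array of day 4 was below every sham array of that day in this signal, while after quantile normalization burn replicate 1 and sham replicate 3 overlapped. The day 4 difference was -2.14 ± 0.68 (SE, log2), with a limma p of 0.00672 that did not pass adjustment (0.351, range 0.169 to 0.691 over all alternatives).

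A like pattern, at a like brightness, was seen in the row of rank 14. On day 4 it read 1184.6, 531.9 and 521.8 in burn and 2076.1, 2847.2 and 1381.8 in sham, with no overlap. The day 4 difference was -1.53 ± 0.42 (SE, log2; limma adjusted p = 0.271, range 0.124 to 0.651). On day 2 it was -1.26 and on day 7 -0.98. The rows of rank 3 and 14 varied together, with a correlation of 0.927 over the 18 arrays and 0.827 in their deviations from the group means, which the choice did not use. Both were lowest in burn on replicates 2 and 3 of day 4 and lowest in sham on replicate 3. Whether they are probe sets of 1 transcript cannot be read from the names.

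Rank 128 had the smallest p among members on day 4, but was very dim. It read 11.1, 6.1 and 2.3 in burn and 96.3, 125.2 and 25.9 in sham on day 4 (deposited signal). The difference was -1.94 ± 0.42 (SE, log2) with a limma adjusted p of 0.218 (range 0.0559 to 0.614). Its size moved with the pseudocount, from -3.33 with 1 to -0.96 with 64. Burn was below sham without overlap on days 2 and 4 and overlapped it on day 7.

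The rows of rank 15 and 11 completed the 5 lowest on day 4. Rank 15 read 65.7, 18.1 and 24.3 in burn and 160.3, 76.6 and 144.7 in sham, a difference of -1.43 ± 0.50 (SE, log2; limma adjusted p = 0.396). Rank 11 read 25.4, 22.1 and 140.5 in burn and 148.8, 140.0 and 188.6 in sham, a difference of -1.40 ± 0.52 (SE, log2; limma adjusted p = 0.441). Arrays of the first did not overlap, and in the second burn replicate 3 reached the sham range. Without that replicate the second difference was -2.08.

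By the choice, the row of rank 1 was the lowest. It kept a steady level in sham and a scattered one in burn. Sham signal was 150.4, 266.8 and 181.7 on day 2, 200.6, 180.1 and 167.5 on day 4, and 162.7, 184.5 and 160.4 on day 7. Burn signal was 18.4, 26.0 and 32.2 on day 2, 192.8, 37.9 and 44.3 on day 4, and 22.6, 188.2 and 18.7 on day 7. On days 4 and 7, 1 burn array thus stood at the sham level and the other 2 far below it. The day 4 difference was -1.08 ± 0.53 (SE, log2; limma adjusted p = 0.557). Without burn day 4 replicate 1, the array at the sham level, it was -1.62.

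The other rows of the 10 lowest ranks did not hold a common direction on day 4. Differences were below 0 in ranks 4, 5, 7, 8, 9 and 10, from -0.65 to -0.13 (log2), and above 0 in ranks 2 and 6, at 0.81 and 0.63. Limma adjusted p values of these 8 rows on day 4 ran from 0.666 to 0.970. Rank 4 is an example of a row that was far lower on day 2 than on day 4. Its burn signal was 22.3, 44.6 and 13.1 on day 2 but 158.6, 263.2 and 150.3 on day 4, beside sham signals of 140.1, 143.6 and 126.7 on day 2 and 258.3, 219.3 and 219.9 on day 4. Burn and sham did not overlap on day 2 and overlapped on day 4.

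Some members stood higher in burn on day 4. The 5 highest were the rows of rank 32, 70, 126, 115 and 28, at 1.08, 1.07, 0.98, 0.93 and 0.87 (log2), all with mean levels between 5.55 and 6.48. Rank 126 had the smallest p among them. It read 59.4, 75.0 and 51.9 in burn and 20.4, 23.8 and 27.4 in sham on day 4, without overlap (difference 0.98 ± 0.29, SE; limma adjusted p = 0.308). On day 7 the burn mean was the lower, with 11.8, 29.9 and 27.4 in burn and 32.3, 94.3 and 22.9 in sham. Rank 70 read 92.1, 60.4 and 71.7 in burn and 28.5, 50.8 and 11.3 in sham on day 4, also without overlap (limma adjusted p = 0.441).

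**Figure D4:**
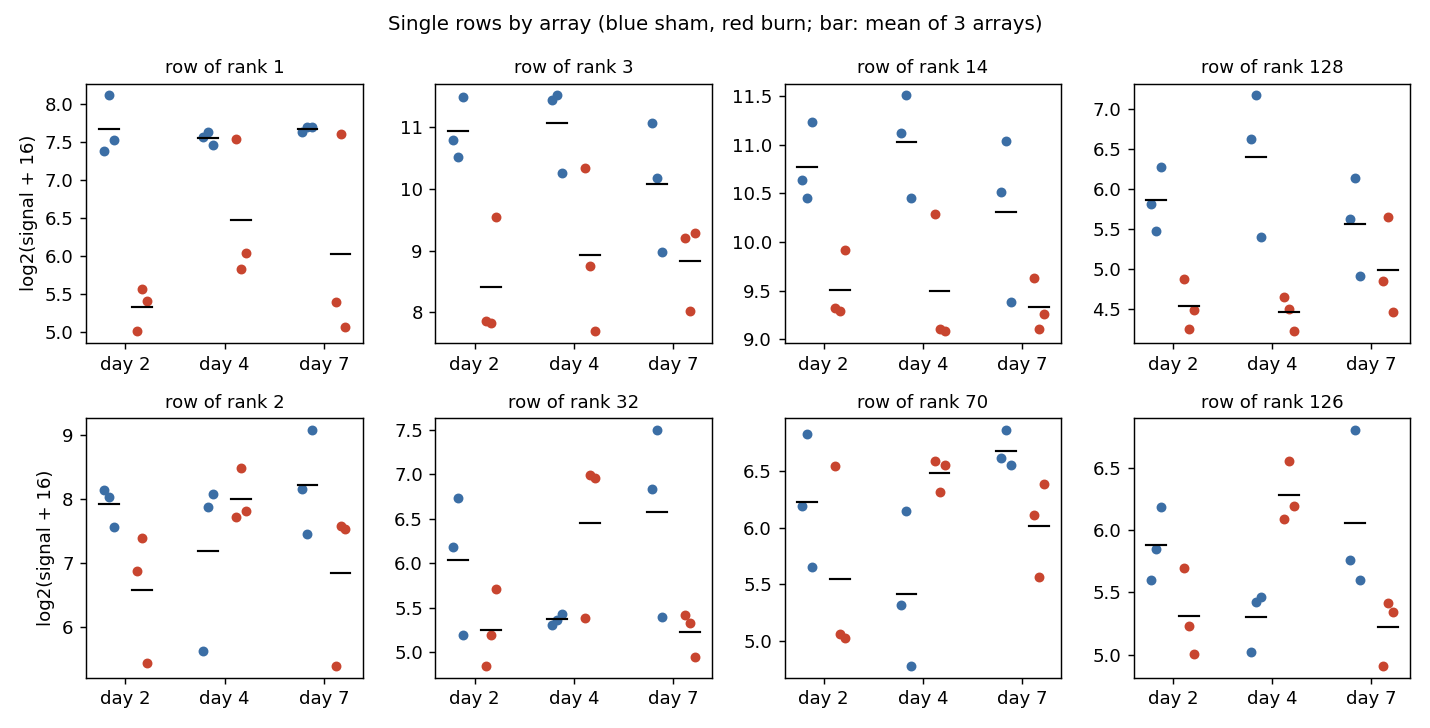
Levels of 8 single rows, log2(signal + 16) after quantile normalization, on every array of days 2, 4 and 7 (blue sham, red burn; bar: mean of 3 arrays). Rows of rank 1, 3, 14 and 128 have burn means below sham means on all 3 days, and rows of rank 2, 32, 70 and 126 have burn means above sham means on day 4, by 0.81 to 1.08.

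Burn arrays lay below sham arrays without overlap on all 3 days in 2 members, the rows of rank 86 and 129, named after their values were seen (1.33% of members against 0.107% of all rows, with days 2 and 7 part of the choice). Of all 153 rows without such overlap on days 2 and 7, 17 (11.1%) had none on day 4 either. Rank 86 had the smallest residual spread of the 15 members above a level of 9. It read 1077.0, 1089.6 and 1076.6 in burn and 1188.3, 1309.7 and 1187.4 in sham on day 4, means of 10.12 ± 0.03 and 10.28 ± 0.08 (log2; SD, n = 3 each). That difference, -0.16 ± 0.10 (SE; limma adjusted p = 0.688), was small beside the -0.62 of day 2 and the -0.68 of day 7 that chose the row. It is also the 1 member that passed on day 7. Rank 129 read 102.2, 78.6 and 81.9 in burn and 165.8, 121.4 and 130.7 in sham on day 4, a difference of -0.51 ± 0.17 (SE, log2; limma adjusted p = 0.355). In its deposited signal the arrays of day 7 overlapped, with 110.1 on burn replicate 2 and 102.7 on sham replicate 3.

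The members did not move as 1 block within groups. Over the 11175 pairs of members, deviations from the group means correlated at 0.0147 on average, against 0.00021 over all rows without the controls. The quartiles were -0.20 and 0.23, and 20 pairs were above 0.8. The share of pairs above 0.8 over all rows was not computed, so nothing is read from that count. Among these, ranks 61, 67 and 113 correlated with each other at 0.878 to 0.922, and rank 108 correlated with rank 3 at 0.837. In the levels of the 18 arrays, without taking off group means, ranks 61, 67 and 113 correlated at 0.465 to 0.813. The deviations come from the same 18 arrays, with 12 residual degrees of freedom, and the limit of 0.8 was set after the values were seen.

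Choosing rows on 1 day alone showed how much of a low value carried to another day with its own sham arrays. The 150 rows lowest on day 2 had a median of -1.12 (log2) there and of -0.13 on day 7, where 92 lay below 0 (51.9% of all rows did). At an unadjusted limma p under 0.05, 15 of them were lower on day 7 and 2 higher, where 4.48% and 5.38% of all rows were. The 150 rows lowest on day 7 had a median of -1.14 there and of -0.10 on day 2, where 88 lay below 0 (51.3% of all rows did). At that p, 13 were lower and 6 higher on day 2, where 4.42% and 4.41% of all rows were. On day 4 these sets had medians of -0.04 and 0.02. They shared 43 and 36 rows with the 150 members, and 16 with each other.

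The same choice was also made on the other pairs of days, an addition made after the values were seen. Rows lowest on days 2 and 4 had a median of -0.14 on day 7, with 89 of 150 below 0 (51.9% of all rows). At an unadjusted limma p under 0.05, 13 were lower and 4 higher, where 4.48% and 5.38% of all rows were. Rows lowest on days 4 and 7 had a median of -0.16 on day 2, with 96 below 0 (51.3% of all rows). At that p, 22 were lower and 7 higher, where 4.42% and 4.41% of all rows were. The members, read on day 4, stand beside these at -0.08, 84, 14 and 4. Of all rows on day 4, 50.4% lay below 0, and 4.38% were lower and 4.95% higher at that p. The differences between these sets were not tested.

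The 150 rows highest in burn on days 2 and 7, chosen by the same rule with the sign turned, had a median of the opposite sign on day 4. Their median was 0.90 on both days of the choice and -0.24 (log2) on day 4. On that day 101 of 150 (67.3%) lay below 0, where 50.4% of all rows did. At an unadjusted limma p under 0.05, 21 (14%) were lower and 10 (6.67%) higher, where 4.38% and 4.95% of all rows were. The median residual standard deviation was 0.56 log2 units in this set, against 0.27 over all rows. Whether the 2 sets differ on day 4 was not tested.

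The 3' over 5' signal ratios of Actb and Gapdh, a measure of RNA integrity, averaged lower in burn on days 2 and 7. They did not follow the levels of the members over all groups. The ratio of 3' over 5' signal of Actb averaged 0.25 ± 0.13 (log2; SD, n = 3) in burn and 0.61 ± 0.28 in sham on day 2, and 0.41 ± 0.04 and 1.15 ± 0.24 on day 7. On day 4 it averaged 0.81 ± 0.09 in burn and 0.70 ± 0.24 in sham. The ratio of Gapdh averaged 0.27 ± 0.07 and 0.46 ± 0.22 on day 2, 0.57 ± 0.14 and 0.40 ± 0.17 on day 4, and 0.39 ± 0.04 and 0.88 ± 0.32 on day 7. The mean of the burn arm was thus the lower in both ratios on the days when the members were lower by the choice, and not on day 4. Between days the order differed. The Actb ratio of sham day 2 was below those of both arms on day 4. The members' median level was higher in sham day 2, at 6.85 (log2) against 6.60 in burn and 6.62 in sham on day 4. On single arrays, the arms overlapped in both ratios on days 2 and 4 and in neither on day 7. The part of this in the low values of days 2 and 7 was not tested. With the Actb ratio as a covariate, the members' day 4 median was -0.09, and limma called 0 members and 0 of all rows. In that fit 14 members (9.33%) were lower at an unadjusted limma p under 0.05, where 4.29% of all rows were.

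**Figure D5:**
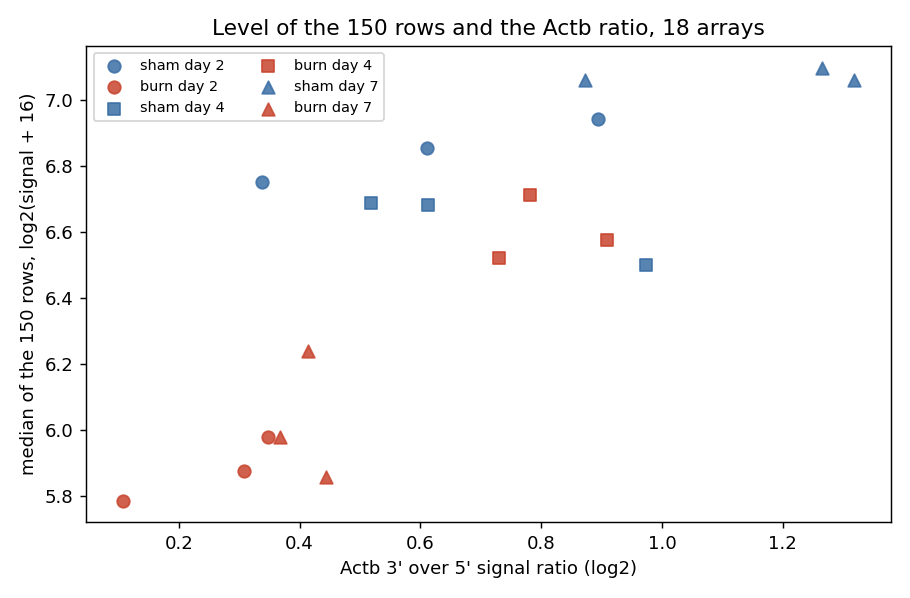
Median level of the 150 rows (y axis, log2(signal + 16)) against the 3' over 5' signal ratio of Actb (x axis, log2) on each of 18 arrays (blue sham, red burn; circles day 2, squares day 4, triangles day 7). The 6 burn arrays of days 2 and 7 lie lowest in level, at ratios of 0.11 to 0.44. The 6 arrays of day 4 lie next in level, at ratios of 0.52 to 0.97. The 6 sham arrays of days 2 and 7 lie highest, at ratios of 0.34 to 1.32, a range that overlaps both others.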

How the data were processed

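The authors deposited a linear intensity for each of 15923 rows and array. The software that made it: not given in the sources used here. No value lay below 0, and array medians ran from 174.1 to 233.4 on the 18 arrays of days 2, 4 and 7. Values were taken to log2(signal + 16) and quantile-normalized over these arrays, which correlated at 0.942 to 0.971. Fold changes are on that scale and understate changes of dim rows.

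Burn was compared with sham on each day with limma 3.58.1 in R 4.3.3 (lmFit, eBayes, 1 mean per group, 12 residual degrees of freedom), with Benjamini-Hochberg adjustment over all 15923 rows. The code was tested on simulated data. Lists are described by counts and medians beside all rows. Rows are named by rank: ranks 1 to 10, the 5 lowest and 5 highest on day 4, any member called on day 4, and the boundary. The members, lists and tests were chosen with earlier results of these data known. The number of arrays limits the precision. Alternatives covered scaling, pseudocount, filter, variance model, covariates, set size and single arrays.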

Additional observations from a re-analysis of the deposited data

Results flagged for a closer look

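In 5 of the rows named by rank, all 3 burn arrays lay above the sham mean on day 4 and all 3 below it on another day. For days 2 and 7 the choice of the rows fixed the sign of the mean difference, though not the side of each array. Ranks 28, 32, 70 and 126 were named for their high day 4 differences, so the naming fixed their sign on that day. The share of all rows with this pattern was not computed, so nothing is read from the count. The difference between days was not tested. The day 4 differences, burn minus sham, were 0.81 (log2) in the row of rank 2, 0.87 in rank 28, 1.08 in rank 32 and 0.98 in rank 126, each below the sham mean on both days 2 and 7. In the row of rank 70 it was 1.07, with burn arrays all below the sham mean on day 7 only. None of the 5 passed limma on day 4, and with 1 sham array left out (day 4 replicate 1) the difference of rank 2 was 0.03.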

How the results depend on the processing

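Under every alternative run, limma called 0 members on day 4. Of all rows it called 0 to 6, the most with an intensity trend and robust variance. A count of 0 in 150 is thus not particular to the members. The smallest adjusted p over the members was lowest without replicate 3 of sham day 4 (0.0559) and highest without replicate 1 of that group (0.614). The count of rows lower at an unadjusted limma p under 0.05 was 14 in the members. With a pseudocount of 1 and rows chosen anew it was 8 (5.33%, against 4.21% of all rows). Without the dimmest 33.3% of rows and with rows chosen anew it was 26 (17.3%, against 5.89% of all rows left). For sets of 100 and 300 rows it was 8 and 24 (8% each, against 4.38% of all rows). In the set of 300, 159 (53%) lay below 0, against 50.4% of all rows. Sets of other size hold other numbers of rows by construction, and why the other settings moved the count was not tested. With single arrays left out there were 9 to 16 lower rows, 72 to 88 of 150 below 0, medians from -0.11 to 0.01 and 0 to 0 called. Over the same settings 2.95% to 5.08% of all rows were lower at that p, and 49% to 51% lay below 0. Of 19 rows named by rank, 4 of 342 values with an array left out changed sign, none of them called. They were in ranks 8, 5 and 9. Rank 8 stood at -0.13 with all arrays, with a leave-out range of -0.42 to 0.10, and 0.03 without sham day 4 replicate 1. Rank 5 stood at -0.31 (range -0.57 to 0.21) and rank 9 at -0.18 (range -0.40 to 0.062). Among 197 values under other settings 0 changed sign. Equal replicate numbers were not taken as pairs: 2 of 9 correlations of paired deviations were over 0.1 (-0.0342 to 0.168). A replicate block within days gave 17 lower rows (11.3%, against 4.36% of all rows) and 0 called. A replicate block over the series gave 15 (10%, against 4.19% of all rows) and 0. The leave-outs for the brightest 50 members were added after the data were seen. The spread of the members limits what day 4 can show. Their median standard error on that day was 0.43 (log2), against 0.22 over all rows. Of the 150 members, 126 lay below the median level, and the part of dim signal in this spread was not tested.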
